A study of Mus musculus with 2 samples.

Results

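Kupffer cells, the resident macrophages of the liver, were followed through 10 genes that they express, among them the genes of the 3 chains of complement component C1q. The genes are C1qa, C1qb, C1qc, Clec4f, Cd5l, Cd163, Emr1, Cd68, Fcna and Folr2. They were chosen by name, with their values in the same libraries already known, and all 10 were present among the 8551 genes listed in the deposited table. Their differences between the libraries are therefore given as a description, without a test. Liver RNA was taken from male wild type mice, called normal, and from male db/db mice, called diabetic, all 9 weeks old and killed about 3 h into the light cycle. The labels give a C57BL/6 background for both genotypes and no treatment for either. The db/db mutation lies in the leptin receptor gene and is carried in all tissues. The methods name 2 suppliers of mice without saying which genotype came from which, and they do not state whether RNA of several mice was pooled. There is 1 library per group, which normal liver and diabetic liver stand for below, so no difference has a replicate check.

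Kupffer cells line the liver sinusoids, where they take up particles, aged blood cells and microbial products from portal blood. C1q is the recognition molecule that starts the classical complement pathway when it binds to antibody, and its A, B and C chains are built together into 1 protein with collagen-like stalks and globular heads. Unlike most complement proteins of plasma, which hepatocytes make, C1q comes mainly from macrophages and dendritic cells. In whole liver, fewer Kupffer cells and less RNA per Kupffer cell cannot be told apart.

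Digital gene expression counts short tags that begin at a DpnII site in the cDNA, so the reading of each gene rests on a few bases of its transcript. For each gene, the DpnII site nearest the 3' end that leaves room for a tag of 20 bases was found in its longest coding transcript (GENCODE M21, build GRCm38, matched by Entrez identifier). They are shown for the 3 C1q chains and for the genes described beside them, with the DpnII site in capitals and the bases after it in lower case, 5' to 3'.
C1qa: GATCcccgtctgtgtctgtg
C1qb: GATCgggacagcatgcagaa
C1qc: GATCcatcggccctgtatct
Cd163: GATCacagtgcatcatgtcc
Folr2: GATCcatgttgggggttggg
Fcna: GATCtctagaagttgaagtc
Emr1: GATCatacttttaataacta
Cd5l: GATCcctcagtctttatgag
Cd68: GATCctccactgttggccct
Clec4f: GATCtttctctttttctctt
Emr1 stands in that annotation as Adgre1. The submitters' processing notes name mm9, an earlier build, and the deposited table gives neither tags nor coordinates, so these tags are the ones the annotation predicts and not the ones observed.

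**Figure D1:**
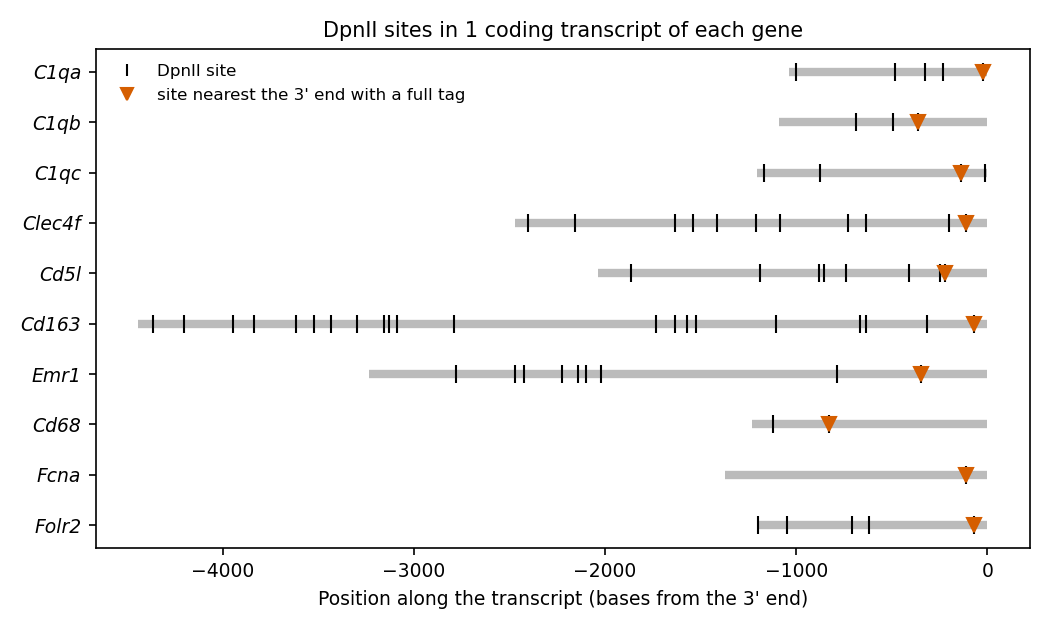
DpnII sites along 1 coding transcript of each of the 10 genes, in bases from the annotated 3' end (horizontal axis, 3' end at the right). Grey bars are transcripts, black ticks are sites, and orange triangles mark the site nearest the 3' end with room for a full tag, which lies 21 bases from the end in C1qa and 829 bases from it in Cd68.

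The predicted tags of 8 genes lay in the 3' UTR, in the last exon. The exceptions were C1qb, whose tag lay in the coding sequence of exon 3, 364 bases before the 3' end (chr4:136880473-136880492), and Cd68, whose tag lay in the coding sequence of exon 2, 829 bases before it (chr11:69665650-69665669). The tag of C1qa was 21 bases before the annotated 3' end (chr4:136895918-136895937), which leaves 1 base after it. In C1qc the tag was 139 bases before the end (chr4:136889923-136889942), and a further site only 12 bases from the end has no room for a full tag. The 3 C1q genes lie next to each other on chromosome 4, all on the minus strand. Between 1 site in Fcna and 21 sites in Cd163 were found per transcript, and the text of the study does not state whether tags of the other sites were counted too.

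Each of 9 tags was found in transcripts of 1 gene only, on either strand. The tag of Folr2 (chr7:101840038-101840057) was also found in Gm10602, an annotated gene that overlaps Folr2 on the opposite strand. Tags of these genes may not have been told apart if strand was ignored, which the text of the study does not state. Fcna (chr2:25624757-25624776) overlaps an antisense gene, Fcnaos, whose annotated transcripts do not hold the Fcna tag. The other tags were those of Cd163 (chr6:124330461-124330480), Emr1 (chr17:57483182-57483201), Cd5l (chr3:87370851-87370870) and Clec4f (chr6:83644634-83644653). The Emr1 tag stood in 1 of the 5 annotated coding transcripts, and the Folr2 tag in 2 of 4.

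The deposited TPM of a gene is its tag count scaled to the clean tags of its library. Since TPM rises in equal steps, the steps give 10278530 clean tags for normal liver and 13508232 for diabetic liver. A gene with 0 reads could be present at up to 3 reads, 0.292 TPM in normal liver and 0.222 TPM in diabetic liver, and all 10 genes lay above this in both. The 10 genes together had 4273 reads in normal liver and 3265 in diabetic liver. Clec4f had the fewest with 15 reads in each, while C1qa had the most in normal liver with 1814 and Cd5l the most in diabetic liver with 850. Intervals are 95% intervals computed from reads. They hold counting error alone and leave out the variation between mice. Since the tags carry no molecular identifiers, copies of 1 molecule may be counted more than once. Tag counts depend on the site in each transcript, so levels are compared for a gene between the libraries and not between genes.

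At least 1.5-fold lower in diabetic liver were 6 of the 10 genes, C1qa, C1qc, Folr2, Emr1, Cd163 and Fcna, where 15.3% of all listed genes were at least 1.5-fold lower. At least 1.5-fold higher was 1 gene, C1qb, where 34.4% of all listed genes were at least 1.5-fold higher, and it was within 1.5-fold under each of 4 other scalings. The other 3, Cd5l, Cd68 and Clec4f, differed by less than 1.5-fold. The median log2 ratio, diabetic over normal, was -0.85 for the 10 genes and 0.25 for all listed genes. With the whole counting interval required to lie past 1.5-fold, a criterion added after the values were seen, 4 genes were lower (C1qa, C1qc, Folr2 and Cd163) and 0 were higher, against 5.37% and 17.4% of all listed genes.

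**Figure D2:**
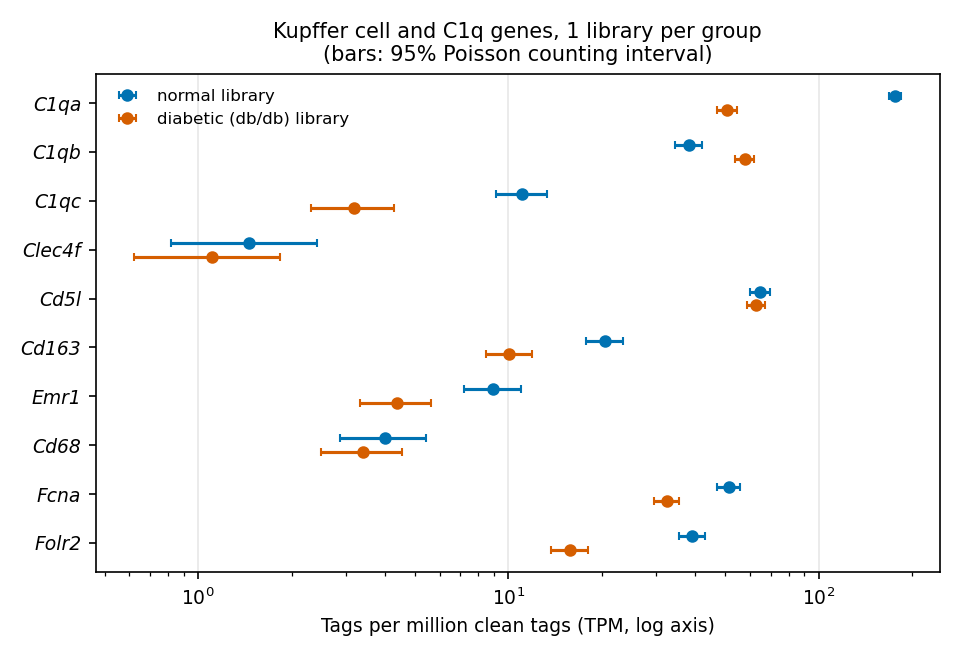
Levels of the 10 genes in TPM (horizontal log axis) in normal liver (blue) and diabetic liver (orange), 1 library per group, with 95% Poisson counting intervals. C1qa lies at 176 TPM in normal liver and 50.7 TPM in diabetic liver, C1qb lies in the opposite order at 38.1 and 57.8 TPM, and the points of Cd5l nearly coincide at 64.7 and 62.9 TPM.

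C1qa (Entrez 12259) codes for the A chain of C1q. It was at 176 TPM in normal liver (95% Poisson interval, 168.5 to 184.8) and at 50.7 TPM in diabetic liver (46.98 to 54.65), from 1814 and 685 reads. The diabetic level was 3.48-fold lower, with a log2 ratio of -1.80 (95% Clopper-Pearson interval, -1.93 to -1.67). Only 1.78% of the listed genes had a lower ratio.

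C1qc (Entrez 12262), the gene of the C chain, had 114 reads in normal liver and 43 in diabetic liver. Its level was 11.1 TPM in normal liver (95% Poisson interval, 9.15 to 13.3) and 3.18 TPM in diabetic liver (2.30 to 4.29). This is 3.49-fold lower, a log2 ratio of -1.80 with a 95% Clopper-Pearson interval of -2.34 to -1.28 that is wide because of the few reads. The point values of C1qa and C1qc thus differed from equality by nearly the same factor.

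C1qb (Entrez 12260), the gene of the B chain, went the other way. It was at 38.1 TPM in normal liver (95% Poisson interval, 34.5 to 42.1) and at 57.8 TPM in diabetic liver (53.8 to 62.0), from 392 and 781 reads. The diabetic level was 1.52-fold higher, a log2 ratio of 0.60 (95% Clopper-Pearson interval, 0.42 to 0.78), so the interval holds values on both sides of 1.5-fold. Among the listed genes 66.2% had a lower ratio, so C1qb stands nearer the middle of all genes and C1qa and C1qc near the low end.

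Since the 3 chains were read in the same libraries, the proportions among them do not depend on the scaling between the libraries. The normal library held 2320 C1q reads, of which 78.2% were C1qa (95% Wilson interval, 76.5% to 79.8%), 16.9% C1qb (15.4% to 18.5%) and 4.91% C1qc (4.11% to 5.87%). The diabetic library held 1509 C1q reads. Of these 45.4% were C1qa (42.9% to 47.9%), 51.8% C1qb (49.2% to 54.3%) and 2.85% C1qc (2.12% to 3.82%). The share of C1qb was thus higher in diabetic liver than in normal liver, and the shares of C1qa and C1qc were lower.

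**Figure D3:**
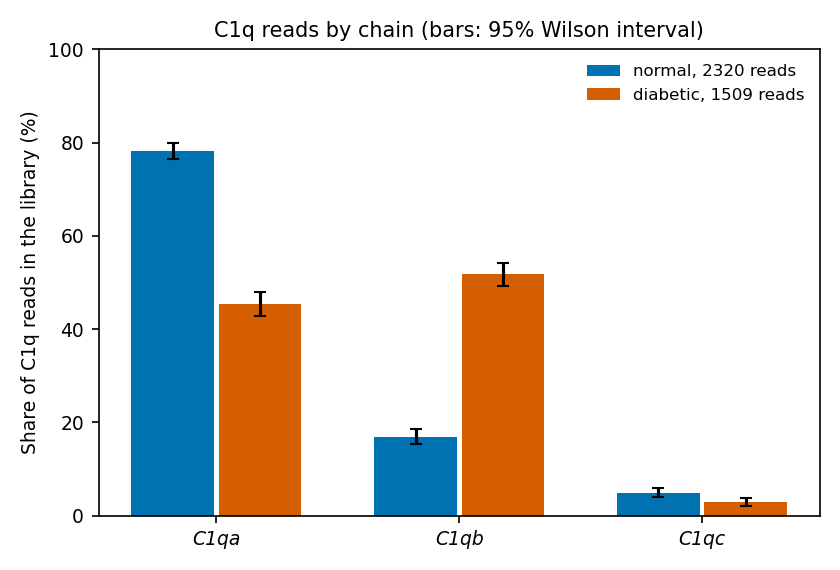
Share of the C1q reads of each library (vertical axis, percent) that came from each chain, in normal liver (blue, 2320 reads) and diabetic liver (orange, 1509 reads), with 95% Wilson intervals. The C1qb share is 16.9% in normal liver and 51.8% in diabetic liver, and the C1qa share is 78.2% and 45.4% in the same order.

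For each C1qb read there were 4.63 C1qa reads in normal liver and 0.877 in diabetic liver, a 5.28-fold lower proportion (log2 difference -2.40, 95% interval -2.62 to -2.18). C1qc against C1qb gave the same picture, with 0.291 and 0.0551 C1qc reads per C1qb read (log2 difference -2.40, 95% interval -2.94 to -1.87). For each C1qc read there were 15.9 C1qa reads in normal liver and 15.9 in diabetic liver, a log2 difference of 0.00 (95% interval, -0.52 to 0.52). The A and C chain readings therefore kept their proportion between the libraries within counting error, and the B chain reading did not keep it with either. As given above, the B chain differs from the other 2 in that its predicted tag lies in the coding sequence, and the part of this in the difference was not tested. The 3 chains summed to 225.7 TPM in normal liver and 111.7 TPM in diabetic liver, a log2 ratio of -1.01 (95% interval, -1.11 to -0.92).

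Folr2, Cd163 and Emr1, genes of scavenger and surface receptors, were lower in diabetic liver, while Clec4f and Cd68, described below, differed by less than 1.5-fold. Folr2 (Entrez 14276), folate receptor beta of tissue macrophages, was at 39.1 TPM in normal liver (95% Poisson interval, 35.4 to 43.1) and at 15.8 TPM in diabetic liver (13.7 to 18.03), from 402 and 213 reads. Its log2 ratio was -1.31 (95% Clopper-Pearson interval, -1.56 to -1.07), which is 2.48-fold lower. The intervals of the levels do not overlap, and 4.02% of the listed genes had a lower ratio.

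Cd163 (Entrez 93671) codes for a scavenger receptor that takes up haemoglobin released from red blood cells. It had 211 reads in normal liver and 136 in diabetic liver, 20.5 TPM (95% Poisson interval, 17.9 to 23.5) and 10.1 TPM (8.45 to 11.91). The diabetic level was 2.04-fold lower, with a log2 ratio of -1.03 (95% Clopper-Pearson interval, -1.35 to -0.71).

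Emr1 (Entrez 13733) codes for F4/80, the surface antigen by which mouse macrophages are commonly recognised. It was at 8.95 TPM in normal liver (95% Poisson interval, 7.22 to 10.98) and at 4.37 TPM in diabetic liver (3.33 to 5.63), from 92 and 59 reads. Its level was 2.05-fold lower, a log2 ratio of -1.03 that matches Cd163 to 2 decimals. The 95% Clopper-Pearson interval, -1.53 to -0.55, reaches inside 1.5-fold.

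Clec4f (Entrez 51811) codes for a C-type lectin that in mice is known as a marker of Kupffer cells. With 15 reads in each library, it was at 1.46 TPM in normal liver (95% Poisson interval, 0.817 to 2.41) and at 1.11 TPM in diabetic liver (0.622 to 1.83). The 95% Clopper-Pearson interval of its log2 ratio of -0.40, from -1.53 to 0.74, spans a decrease and an increase of more than 1.5-fold. A difference in this Kupffer cell marker was not detectable at this depth, and the interval includes the ratios of Cd163, Emr1 and Folr2 as well as that of C1qb.

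The secreted proteins gave different readings. Fcna (Entrez 14133) codes for ficolin A, a lectin that binds sugars on microbes and starts the lectin pathway of complement. It was at 51.3 TPM in normal liver (95% Poisson interval, 47.0 to 55.8) and at 32.35 TPM in diabetic liver (29.4 to 35.5), from 527 and 437 reads. The diabetic level was 1.58-fold lower, a log2 ratio of -0.66 (95% Clopper-Pearson interval, -0.85 to -0.48). Its interval reaches inside 1.5-fold and stays below 0.

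Cd5l (Entrez 11801) codes for a secreted scavenger receptor protein, also called AIM, that circulates bound to IgM. It was at 64.7 TPM in normal liver (95% Poisson interval, 59.9 to 69.8) and at 62.9 TPM in diabetic liver (58.8 to 67.3). From 665 and 850 reads, the log2 ratio came to -0.04 with a narrow 95% Clopper-Pearson interval of -0.19 to 0.11. This interval lies inside 1.5-fold in both directions and does not reach the ratio of any of the 6 genes that were lower. The reads of this macrophage gene thus bound any difference between these libraries more closely than those of the other 9 genes except C1qa.

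Cd68 (Entrez 12514) codes for macrosialin, a heavily glycosylated protein of the lysosome membrane in macrophages. It had 41 reads in normal liver and 46 in diabetic liver, 3.99 TPM (95% Poisson interval, 2.86 to 5.41) and 3.41 TPM (2.49 to 4.54). The log2 ratio of -0.23 had a 95% Clopper-Pearson interval of -0.87 to 0.42. A difference in Cd68 was not detectable at this depth. Of the 10 genes its predicted tag lies farthest from the 3' end, and the part of this in its low count was not tested.

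**Figure D4:**
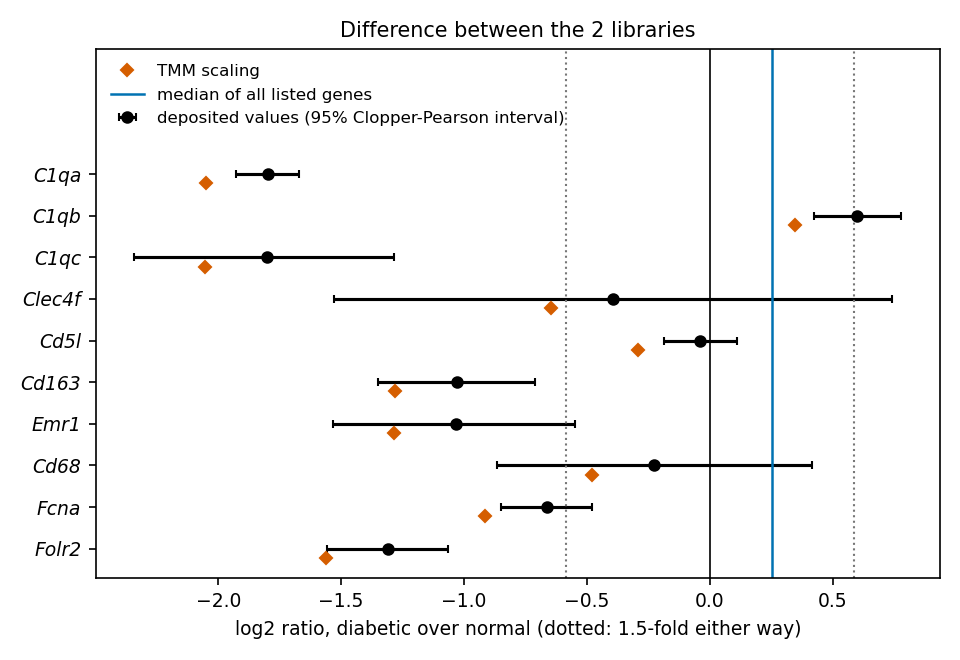
The log2 ratio, diabetic over normal, of each of the 10 genes (black points, with 95% Clopper-Pearson intervals), and the same ratio after scaling by trimmed mean of M values (TMM, orange diamonds). Dotted lines mark 1.5-fold in each direction and the blue line the median of all listed genes at 0.25. C1qa and C1qc lie at -1.80, Cd5l lies at -0.04, and C1qb alone lies above 0 at 0.60.

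All clean tags are the base of the TPM, and on this scale the typical listed gene was higher in diabetic liver. Scaling by TMM, which sets the typical gene to about 0, lowered each log2 ratio by 0.252. C1qb then had a log2 ratio of 0.35 and was within 1.5-fold, and Clec4f with -0.65 was beyond it, so that 7 of the 10 genes were at least 1.5-fold lower and 0 higher. Over all listed genes the split under this scaling was 2022 lower and 2054 higher, in place of 1310 and 2941. Cd5l had a log2 ratio of -0.29 under TMM scaling. Relative to the typical gene, Cd163 had a log2 ratio of -1.28, Emr1 of -1.29 and Folr2 of -1.56. C1qa and C1qc were then at -2.05 each. The order of the 10 genes is the same under any scaling, since each scaling shifts all of them alike.

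Summed over the 10 genes, the level was 415.7 TPM in normal liver and 241.7 TPM in diabetic liver, a log2 ratio of -0.78 (95% interval, -0.85 to -0.72). Without C1qa, which gave the most reads, the sums were 239.2 and 191.0 TPM, a log2 ratio of -0.32 (95% interval, -0.41 to -0.24). For the 7 genes other than C1q the sums were 190.0 and 130.0 TPM, with a log2 ratio of -0.55 (95% interval, -0.64 to -0.45).

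The promoter of C1qb, the only one of the 10 genes with a ratio above 0, is shown as the 250 bases before the annotated start, 5' to 3' on the minus strand (RefSeq, build GRCm38.p6, chr4:136886201-136886450). Capitals mark GAGGAA, a core of sites bound by the macrophage factor PU.1, and TGCTGA, part of the recognition element of MAF factors, each searched on both strands, where the reverse strand reads TTCCTC and TCAGCA.
C1qb: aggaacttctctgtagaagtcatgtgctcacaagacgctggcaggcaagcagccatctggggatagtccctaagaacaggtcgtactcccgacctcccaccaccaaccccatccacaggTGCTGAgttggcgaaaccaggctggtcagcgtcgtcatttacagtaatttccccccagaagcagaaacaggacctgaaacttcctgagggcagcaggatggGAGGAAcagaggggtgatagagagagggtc
The C1qb promoter held 1 match of each motif. The promoter of the neighbouring C1qc, not shown because it overlaps the first exon of C1qc in GENCODE M21, held 1 match of GAGGAA and 0 of TGCTGA. Of the 10 genes, 8 matched the promoter table, with 9 promoters since Folr2 has 2. GAGGAA was found in 5 of the 9 and in 23.3% of all 32851 promoters, and TGCTGA in 6 of the 9 and in 16.1% of all. C1qa and Emr1 had no entry. A match is a description of the letters and not of binding.

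Other genes known from Kupffer cells, several of which hepatocytes also express, were read in the same way. Of 15 such genes 11 were measured, of which 4 were at least 1.5-fold lower and 2 higher, with a median log2 ratio of -0.04. Over all listed genes 15.3% were lower and 34.4% higher, with a median of 0.25. Csf1r, the receptor for the growth factor on which macrophages depend, was at 21.7 TPM in normal and 10.1 TPM in diabetic liver, and its log2 ratio was -1.10 (95% interval, -1.41 to -0.78), close to those of Cd163 and Emr1. Id3, a transcriptional regulator of Kupffer cells, had a log2 ratio of -0.99 (95% interval, -1.17 to -0.81). C6, a complement protein that hepatocytes also make, had a log2 ratio of -2.24. Sdc3 had 119 reads in normal liver and 0 in diabetic liver, 52.1-fold lower with 0 set to the floor of 3 reads. With counting error, the upper limit of the log2 ratio of Sdc3 was -5.38. Higher were Clec1b, with 19 and 50 reads and a log2 ratio of 1.00 (95% interval, 0.21 to 1.85), and Hmox1, the haem-degrading enzyme, with 0.76. Within 1.5-fold were the iron exporter gene Slc40a1 with -0.17, Nr1h3 with -0.04, Pltp with 0.17, Cd207 with 0.28 and Il18bp with 0.36. Vsig4, Timd4, Marco and Spic were not among the 8551 listed genes under these symbols, so they could not be read here.

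Of 38 general macrophage genes 29 were measured, 14 of them at least 1.5-fold lower and 2 higher, with a median log2 ratio of -0.55. The shares over all listed genes were 15.3% lower and 34.4% higher. Laptm5, a lysosomal protein of blood-derived cells, had a log2 ratio of -1.53. Summed, the 29 general macrophage genes were at 586.4 TPM in normal liver and 441.2 TPM in diabetic liver. Of the MHC class II genes, which dendritic cells, B cells and macrophages express, 0 of 5 were lower and 2 higher, with a summed level of 233.6 and 347.3 TPM. The share higher is near the 34.4% of all listed genes, so this count is no result about these genes. Of the monocyte and neutrophil genes 1 of 5 was lower and 2 were higher. Plac8 had 355 and 267 reads and a log2 ratio of -0.81 (95% interval, -1.04 to -0.57), and Lcn2, which hepatocytes also make, had 172 and 967 reads and a log2 ratio of 2.10 (95% interval, 1.86 to 2.34).

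**Figure D5:**
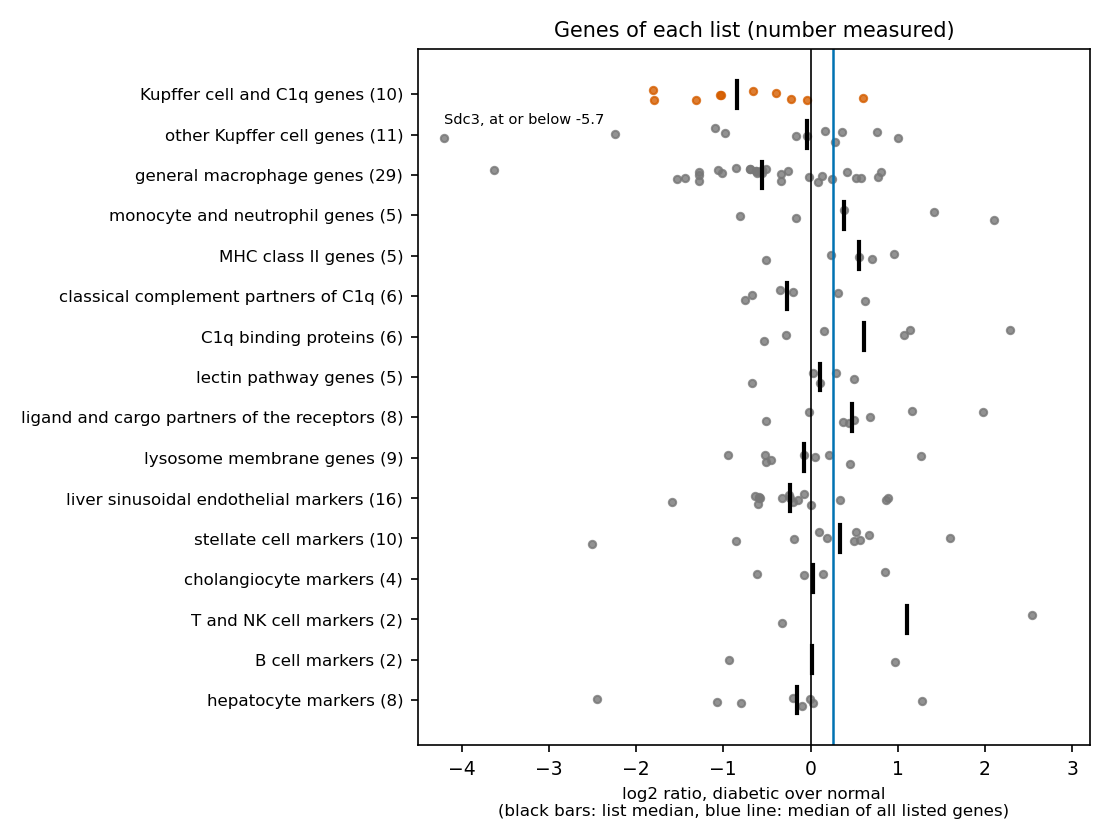
The log2 ratio, diabetic over normal, of each measured gene (points) in the 10 Kupffer cell and C1q genes (orange) and in 15 other lists (grey), with the number measured in brackets, list medians as black bars and the median of all listed genes as a blue line. The 10 genes have a median of -0.85, the other Kupffer cell genes of -0.04 and the general macrophage genes of -0.55, while the MHC class II genes have a median of 0.56.

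The genes of proteins that act with C1q had log2 ratios between -0.75 and 0.62. C1q activates the proteases C1r and C1s, which cut C4 and C2, and the inhibitor C1INH, coded by Serping1, stops them. Serping1 had a log2 ratio of -0.67 (95% interval, -0.78 to -0.55) and C1ra of -0.75 from 50 and 39 reads. C1ra and C1rb are near-identical copies, so the split of tags between them is uncertain. C1rb with -0.20, C2 with -0.35 and C4bp with 0.32 were within 1.5-fold, and C3 was higher with 0.62, so that 2 of the 6 measured genes were lower and 1 higher. Of the genes grouped here as C1q binding proteins, 0 of 6 were lower and 3 higher. These were Cd93 with 9 and 58 reads and a log2 ratio of 2.29, C1qbp with 1.14 and Cr1l with 1.07. Whether mouse Cr1l binds C1q was not checked. Calr with 0.15, Scarf1 with -0.28 and Lrp1 with -0.53 were within 1.5-fold. In the lectin pathway, where Fcna acts, 1 of 5 genes was lower, Colec10 with a log2 ratio of -0.67, and 0 were higher. Of ligand and cargo partners of the receptors 0 of 8 were lower and 3 higher. Slc19a1, a folate carrier, had the highest log2 ratio of them, 1.98 from only 20 and 104 reads. Hp had the lowest with -0.51, and Hpx, the one with the most reads, had 0.37. Of the lysosome genes 1 of 9 was lower and 1 higher. Under TMM scaling the numbers lower and higher were 4 and 1 for the other Kupffer cell genes, 19 and 0 for the general macrophage genes, 1 and 1 for the MHC class II genes and 3 and 0 for the proteins that act with C1q. They were 1 and 3 for the genes grouped as C1q binding proteins and 1 and 2 for the ligand and cargo partners. For the lysosome genes they were 4 and 1. For the lectin pathway and the monocyte and neutrophil genes they were the same as before. The counts of these short lists on the deposited scale are read against all listed genes, of which 15.3% were lower and 34.4% higher. The counts under TMM scaling are read against 2022 lower and 2054 higher of the 8551 listed genes.

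Markers of other liver cells were set beside the 10 genes. Over all listed genes 15.3% were lower and 34.4% higher, and under TMM scaling 2022 and 2054 of the 8551 were. The counts of these short lists are read against those shares. Of the sinusoidal endothelial markers 5 of 16 were lower and 2 higher, with a median log2 ratio of -0.24 and a summed level of 240.5 and 198.8 TPM. Of the stellate cell markers 2 of 10 were lower and 2 higher, summed to 187.2 and 229.4 TPM. Hepatocyte markers summed to 15720 and 13990 TPM, with 3 of 8 lower and 1 higher, and cholangiocyte markers to 67.1 and 111.0 TPM, with 1 of 4 lower and 1 higher. Of the T and NK cell markers 2 were measured, 0 lower and 1 higher, summed to 8.08 and 37.2 TPM. The higher one was Zap70, a kinase of T cell receptor signalling, with 63 and 481 reads and a log2 ratio of 2.54 (95% interval, 2.16 to 2.94), while Cd3d, a chain of the T cell receptor complex, had 20 and 21 reads. Of the B cell markers 2 were measured, 1 lower and 1 higher, summed to 5.35 and 3.77 TPM. Under TMM scaling the endothelial markers had 6 lower and 2 higher and the stellate cell markers 2 lower and 1 higher, and the counts of the other 4 lists were the same as before. No measured marker of these lists was at 0 reads. Their part in the readings of the 10 genes was not tested.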

How the data were processed

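Poly(A) RNA of normal and diabetic liver was made into cDNA, cut with DpnII and sequenced as tags on an Illumina 1G sequencer. The authors removed adaptors, compared the clean tags with RefSeq and normalized them per gene to values they call TPM, so the deposited values are RPM (tags of a gene scaled to all clean tags), rounded to 2 decimals with 0.01 in place of 0. The submitters' processing notes name mm9, and the aligner is not given in the sources used here. The authors left out genes with a mean under 1 TPM, and the smallest mean in the table was 1.005. The number of other columns with values per sample was 0.

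The 10 genes and the 15 other lists were chosen with earlier results of these data known. Steps between the values gave the reads, with 8513 of 8513 and 8536 of 8537 values whole within the rounding of 0.005 TPM. A gene with 0 reads was set to 3 reads. Called means at least 1.5-fold, and no test was run. Ratios have Clopper-Pearson intervals, levels Poisson and shares Wilson intervals, and proportions between chains an interval from the normal approximation of the log ratio of counts. Genes outside the 10 were named by list membership, as all measured members of the other Kupffer cell genes, the C1q partners and the C1q binding proteins, and otherwise only from the gene with the most reads and those with the lowest and highest ratio at 10 reads or more in each library. Some genes that this rule names are not reported here. The computation was tested on simulated reads, where the reads of all 8551 genes were recovered and 95.85% of the intervals held the true ratio. Alternatives were 4 scalings, pseudocounts, a minimum mean and another fold. The tools were matplotlib 3.10.9, pandas 2.3.3, scipy 1.17.1 and numpy 2.4.6 under Python 3.11.15.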

Additional observations from a re-analysis of the deposited data

How the results depend on the processing

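Of the 10 genes, 6 or 7 were at least 1.5-fold lower under each scaling and pseudocount, 6 of the 8 left by a minimum mean of 5 TPM, 5 at least 2-fold lower and 4 by the whole counting interval. The 1 gene at least 1.5-fold higher, C1qb, became 0 under all 4 scalings, at a fold of 2 and with the whole counting interval past 1.5-fold, the last chosen after seeing the data. Over all listed genes, in place of 1310, the number lower was 2044 when the summed listed genes set the scale, 2022 under TMM, 2009 under median-ratio and 2076 under upper-quartile scaling, 658 with a minimum mean of 5 TPM, 582 at a fold of 2 and 459 by the whole interval. In place of 2941, the number higher was 2028, 2054, 2062 and 1997 under the 4 scalings in the same order, and 1773, 1589 and 1491 under the last 3 alternatives, which by construction test fewer genes or ask for more. The 658 and 1773 were counted among the genes left by the minimum mean, not among all listed genes. Pseudocounts of 0.1 and 1 TPM gave 1279 and 1023 lower, and 2887 and 2501 higher. The median log2 ratio of the 10 genes stayed below 0 under every alternative run. Of the 60 ratios of single genes under alternatives, 40 stayed within their counting interval, 20 moved beyond it and 0 turned, the 20 all under the 4 scalings. No paired analysis was possible because each group has 1 library, and no replicate could be left out. Depth limits Clec4f, Cd68 and C1qc most.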
